A study of Mus musculus with 24 samples.

Results

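Expression of 8 genes for proteins of peripheral myelin was followed in efferent nerve (EN) fibres of the ventral root and afferent nerve (AN) fibres of the dorsal root of lumbar segments L4 to L6. The genes were Pmp22, Mbp, Mag, Mal, Pmp2, Prx, Cldn19 and Pllp. They were chosen by name, and their probes were found by the gene name that the scanner files give to each gene probe, which gave 15 probes for the 8 genes among 56605 gene probes with 37074 gene names. For each gene the probe with the highest mean over the 24 arrays in the authors' value table was used, and the other probes were read as a check. The mice were C57BL/6, and both fibre types were taken at birth (P0) and at 1, 3 and 5 weeks (1 W, 3 W, 5 W), which gave 8 groups with 3 one-colour Agilent arrays each. Roots of 9 mice per age were collected into 1 tube per group, and the study describes the 3 arrays of a group as independent experiments. Whether each array held roots of different mice is not given in the sources used here, so the p-values measure the spread between arrays, which may be partly technical. A root is a mixture of axons, Schwann cells, fibroblasts, macrophages and the cells of its sheath.

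Peripheral myelin is the flattened, spiralled membrane of a Schwann cell around 1 segment of an axon, and it is laid down in rodents mostly after birth. In compact myelin, membrane proteins hold neighbouring wraps together on the outer side while basic proteins zip them on the cytoplasmic side. Non-compact regions hold adhesion proteins that face the axon and junctions and scaffolds that keep cytoplasmic channels open. Of the 8 genes, Pmp22 encodes a tetraspan protein of compact myelin whose gene dosage underlies a common inherited neuropathy. Mbp encodes the basic protein of the cytoplasmic side and Pmp2 encodes P2, a fatty acid-binding protein of the same space. Mal and Pllp encode small tetraspan proteolipids of myelin membrane rafts. Mag encodes an immunoglobulin-family adhesion protein on the membrane that faces the axon. Prx encodes periaxin, a scaffold under the outer membrane of the Schwann cell, and Cldn19 encodes the claudin of the tight junctions that a Schwann cell forms with itself.

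The values are those of 60-base probes, and 3 of them are shown because the results below turn on them. The Pmp2 probe (A_52_P89767, mm9 chr3:10182422-10182481, minus strand) gave the largest difference between AN and EN among the 8 genes. The Cldn19 probe (A_52_P23661, mm9 chr4:118929768-118929827, plus strand) had covered the smallest share of its rise at 1 W among the 8 genes. The second Pmp22 probe (A_55_P2040168, mm9 chr11:62971862-62971921, plus strand) gave larger changes than the brightest one. The capitals in it mark a TGA that starts at base 54, the first stop codon of that reading frame within the probe.
Pmp2 probe: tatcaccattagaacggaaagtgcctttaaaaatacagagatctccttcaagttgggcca
Cldn19 probe: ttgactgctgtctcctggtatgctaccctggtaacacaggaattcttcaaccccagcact
second Pmp22 probe: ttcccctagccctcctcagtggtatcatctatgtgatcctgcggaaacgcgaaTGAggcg
Coordinates are those of the scanner files on mm9. No annotation of that build was used, so whether a probe lies in coding or untranslated sequence was not analysed here.

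Values are log2 of the background-subtracted fluorescence signal after quantile normalization over the 24 arrays, and a difference of 1 is a 2-fold change. A gene was called where a limma fit over 36398 probes gave a Benjamini-Hochberg adjusted p below 0.05 and a change above 2-fold. All 8 chosen probes were well above background on all 24 arrays, and no spot was saturated. A level is compared only with the same probe on other arrays. One array stood apart: AN replicate 3 of the 3 W group reached only 0.96 and 0.963 in its correlation with its group mates, whereas each of the other 23 arrays reached at least 0.965 with an array of its group. For results at 3 W in AN a value without it is given where its removal from the fit without pairs ended a call or changed a count, and the counts of genes called there, 6 against P0 and 1 against EN, were the same without it. Without it the change from P0 was 3.52 for Mbp, 3.12 for Pllp, 2.55 for Cldn19, 1.13 for Mal and 1.04 for Pmp22. Schwann cell genes were present throughout: all 7 lineage markers were above background on all 24 arrays, and their summed signal was 17.06 to 17.11 in EN and 16.89 to 16.92 in AN at P0, and 18.34 to 18.55 and 18.47 to 18.62 by 5 W. The defining oligodendrocyte gene Mobp was above background on 1 of 3 EN arrays and on none of 3 AN arrays at P0 and on all 18 later arrays, while Opalin was above background on 6 of 24 arrays. The sensory neuron list had a summed signal of 14.89 to 15.65 in EN and 15.01 to 16.69 in AN at P0, and of 10.51 to 12.07 in EN and 16.16 to 16.49 in AN at 1 W, so that at P0 the efferent arrays carried sensory neuron genes too. AN replicate 3 at 3 W was the highest of all arrays for that list, at 17.83, against 12.92 and 12.50 in its group.

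On the chosen probes, all 8 genes were lowest at P0 in both fibre types. By 1 W the group means had covered between 55.6% and 100% of the rise to their highest mean. In EN, 5 of 8 genes were called higher than at P0 at each later age, namely Mbp, Mal, Pmp2, Cldn19 and Pllp. Of all probes tested, 6.32% were called higher in EN at 1 W, 16.1% at 3 W and 15.5% of them at 5 W. In AN, 6 of 8 genes were called higher at each age, the same 5 genes with Mag at 1 W and 5 W and with Pmp22 at 3 W, against 4.98%, 15.1% and 15.2% of all probes. The median change of the 8 genes at the 3 later ages in turn was 1.11, 1.28 and 1.32 for EN, and for AN it was 1.64, 1.56 and 2.02, while the median over all tested probes lay between 0.02 and 0.07. No gene of the 8 fell below its P0 mean at any age on the chosen probes. The 3 arrays of the later age were wholly above those at P0 in EN for 8, 7 and 8 genes in order of age, where 25.6%, 36.9% and 30.3% of all probes did so, and for the same numbers of genes in AN, where 21.7%, 29.7% and 27.4% did so. The 3 comparisons within a fibre type share their P0 arrays. In whole roots, more myelinating cells and more RNA of a gene per cell cannot be told apart, and the summed signal of the Schwann cell list was higher after P0 by the ranges given above. Other cell types moved over the same interval. Of 5 macrophage genes 4, 3 and 4 were called higher than at P0 in EN in order of age, with medians of 1.39, 1.71 and 1.19, and 2, 2 and 1 in AN, with medians of 0.68, 0.98 and 0.94, where the count at 3 W was 4 without AN replicate 3. Of 5 skeletal muscle genes 4, 3 and 4 were called lower in EN, with medians of -3.68, -1.88 and -3.19, where 5.65%, 14.4% and 14.5% of all probes were. In AN 4, 0 and 2 were called lower, where 3.62%, 12.8% and 12.7% of all probes were. The muscle gene Myh4 went the other way and was called higher at 3 W and 5 W in both fibre types. It rose by 6.45 and 5.95 in EN and by 9.21 and 7.13 in AN. The part of these cell types in the changes of the 8 genes was not tested.

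**Figure D1:**
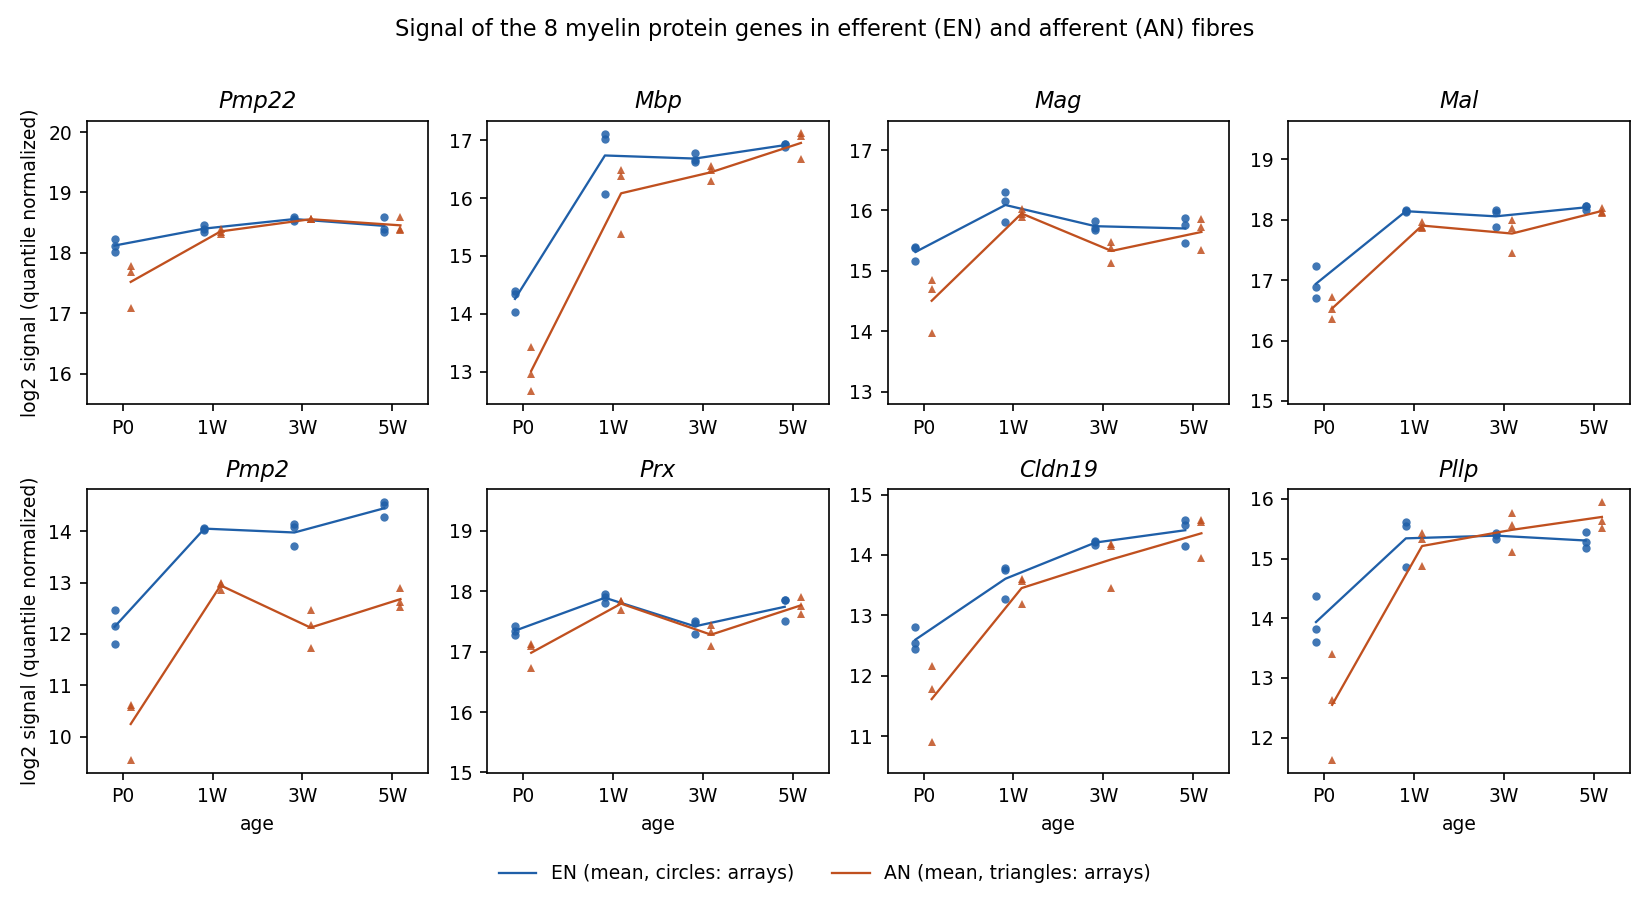
Log2 signal (y axis, quantile normalized, each panel spanning a similar range of log2 units but at its own level) of the 8 genes against age (x axis) in EN (blue circles) and AN (orange triangles), with 1 point per array, 3 arrays per group and lines through the group means. Every gene is lowest at P0, and only Pmp2 shows AN arrays below all EN arrays at all 4 ages.

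Mbp had the largest change of the 8 genes by 5 W, on the chosen probes. Its EN arrays read 14.39, 14.04 and 14.34 at birth, 17.02, 17.11 and 16.08 at 1 W, 16.66, 16.62 and 16.77 at 3 W, and lastly 16.93, 16.88 and 16.94 at 5 W. The AN arrays read 12.95, 12.66 and 13.42 at birth, 16.48, 16.39 and 15.38 at 1 W, 16.56, 16.49 and 16.29 at 3 W, and lastly 16.67, 17.12 and 17.07 at 5 W. Every later array was above every P0 array of its fibre type, and replicate 3 was the lowest array at 1 W in both. The EN change from P0 was 2.48 at 1 W (5.57-fold, SE 0.27, adjusted p = 4.52e-06), 2.43 at 3 W and 2.66 by 5 W. The AN change was 3.07 at 1 W (8.40-fold, SE 0.27, adjusted p = 3.52e-07), 3.43 at 3 W and 3.94 at 5 W (15.4-fold, SE 0.27, adjusted p = 1.14e-09). By 1 W the group mean had covered 93.3% of its full rise in EN and 77.9% in AN. A second Mbp probe (A_52_P329451) gave 1.88, 2.29 and 2.45 in EN and 2.61, 2.90 and 3.23 in AN, all called. The last Mbp probe (A_52_P604195), which carries the accession of another transcript of the gene, correlated with the brightest at 0.293 over the 24 arrays and was called in no comparison with P0. Its AN mean was above its EN mean at every age, with 10.54 against 10.47 at P0 and 11.33 against 10.52 at 3 W.

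Pmp2, the other gene of the cytoplasmic side, rose in both fibre types from unequal levels. The EN arrays read 12.15, 11.80 and 12.47 at birth, 14.08, 14.06 and 14.03 at 1 W, 14.14, 13.71 and 14.09 at 3 W, and lastly 14.57, 14.51 and 14.27 at 5 W. The AN arrays read 10.61, 9.54 and 10.58 at birth, 13.00, 12.98 and 12.86 at 1 W, 12.46, 12.18 and 11.73 at 3 W, and lastly 12.89, 12.52 and 12.62 at 5 W. The highest AN array at any age, replicate 1 at 1 W, stayed below the lowest EN array after P0, and the AN arrays at 3 W overlapped the EN arrays at P0. The change from P0 in EN was 1.92 at 1 W (3.77-fold, SE 0.24, adjusted p = 1.8e-05), 1.84 at 3 W and 2.31 by 5 W. The AN change was 2.70 at 1 W (6.51-fold, SE 0.24, adjusted p = 3.62e-07), 1.88 at 3 W and 2.44 at 5 W. Without AN replicate 3, the AN change at 3 W was 2.08 (adjusted p = 3.89e-06). The chip carries 1 Pmp2 probe, so no second probe checks it.

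The raft proteolipid genes Pllp and Mal were called higher in all 6 comparisons with P0. The EN arrays for Pllp read 14.38, 13.61 and 13.82 at birth, 15.55, 15.61 and 14.86 at 1 W, 15.33, 15.43 and 15.39 at 3 W, and lastly 15.45, 15.28 and 15.18 at 5 W. The AN arrays for Pllp read 13.39, 11.62 and 12.63 at birth, 15.42, 15.33 and 14.88 at 1 W, 15.57, 15.76 and 15.12 at 3 W, and lastly 15.95, 15.64 and 15.51 at 5 W. All AN arrays were below all EN arrays at P0 and above them at 5 W. Pllp rose in EN by 1.40 at 1 W (2.64-fold, SE 0.33, adjusted p = 0.00364), 1.45 at 3 W and 1.37 at 5 W, and in AN by 2.66 at 1 W (6.33-fold, SE 0.33, adjusted p = 1.21e-05), 2.93 at 3 W and 3.15 at 5 W. Its second probe lies on the strand opposite to the gene, was above background on 19 of 24 arrays and followed the first at a correlation of 0.928. Mal ranged from 16.36 to 17.23 over the 6 arrays at P0 and from 17.45 to 18.23 over the 18 later ones. It rose by 1.12 to 1.27 in EN and by 1.24 to 1.61 in AN, each call with an adjusted p of at most 1.07e-05. At 3 W in EN the Mal change was 0.995, just under 2-fold, without EN replicate 2 at P0.

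Cldn19 of the Schwann cell tight junctions reached its highest mean at 5 W in both fibre types. The EN arrays for Cldn19 read 12.80, 12.45 and 12.55 at birth, 13.75, 13.79 and 13.28 at 1 W, 14.21, 14.17 and 14.24 at 3 W, and lastly 14.49, 14.16 and 14.58 at 5 W. The AN arrays for Cldn19 read 12.16, 10.90 and 11.78 at birth, 13.56, 13.60 and 13.19 at 1 W, 14.19, 14.15 and 13.45 at 3 W, and lastly 14.55, 13.95 and 14.58 at 5 W. At 1 W it had covered 55.6% of its full rise in EN and 66.9% in AN, the lowest shares of the 8 genes, and all arrays at 1 W were above those at P0. The change from P0 to 5 W was 1.81 in EN (3.51-fold, SE 0.27, adjusted p = 1.65e-05) and 2.75 in AN (6.71-fold, SE 0.27, adjusted p = 1.09e-07). The EN call at 1 W was at the edge of 2-fold, with a change of 1.01 (SE 0.27, adjusted p = 0.00946). It fell to 0.85 with slide as a block and to 0.93, 0.98, 0.93 and 0.92 without EN replicate 2 or 3 at P0 or EN replicate 1 or 2 at 1 W. The step from 1 W to 3 W did not pass the test in either fibre type (0.60 in EN, adjusted p = 0.107, and 0.48 in AN, adjusted p = 0.196).

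Mag, on the membrane that faces the axon, had its highest mean at 1 W in both fibre types. The EN difference from P0 was 0.78, 0.43 and 0.39 in order of age, with no call, and the AN difference was 1.45 (SE 0.20, adjusted p = 3.44e-05), 0.82 and 1.14 (SE 0.20, adjusted p = 8.16e-05). The EN arrays at P0 read 15.37, 15.17 and 15.39, those of AN 14.70, 13.97 and 14.84, and AN replicate 2 was the lowest of the 24 arrays for this probe. Without that array the AN change at 5 W was 0.87. A second Mag probe (A_55_P2647868), whose transcript accession was not in the gene table used, correlated with the first at 0.588. It was called at no age against P0, with changes of 0.72, -0.13 and -0.16 in EN and 0.66, 0.21 and 0.55 in AN.

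For Pmp22 and Prx the answer depended on the probe. The brightest Pmp22 probe (A_55_P2503961, mm9 chr11:62972929-62972988) was among the 100 brightest of all gene probes on 23 of 24 arrays, and the brightest Prx probe (A_55_P2149951, mm9 chr7:28304999-28305058) on 18. Quantile normalization gives each array the same set of top values, and at these ranks several AN and EN arrays of the same replicate number received the same Pmp22 value, such as 18.40 in both replicates 2 at 1 W. The brightest Pmp22 probe was at 18.23, 18.02 and 18.11 in EN and 17.78, 17.09 and 17.69 in AN at P0, and between 18.32 and 18.59 on all 18 later arrays. Its change from P0 was 0.28, 0.44 and 0.33 in EN and 0.84, 1.04 and 0.94 in AN, of which only the AN value at 3 W was called (adjusted p = 5.13e-06). That call lay at the edge of 2-fold, with 0.99 in the authors' value table, 0.98 with 75th percentile scaling, 0.86 with slide as a block and 0.83 without AN replicate 2 at P0. At 5 W in AN the change passed 2-fold with 75th percentile scaling (1.20) and without AN replicate 1 (1.07) or 3 (1.02) at P0. With the same 75th percentile scaling the EN changes were 0.59, 0.77 and 0.72.

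The second Pmp22 probe, shown above, read 14.81 to 15.22 on the EN arrays at birth, 16.50 to 16.99 at 1 W, 17.44 to 17.72 at 3 W and lastly 17.40 to 17.56. On the AN arrays it read 13.18 to 14.13 at birth, 16.01 to 16.34 at 1 W, 16.74 to 17.15 at 3 W and lastly 16.94 to 17.29. No later array overlapped a P0 array of its fibre type. It rose by 1.78 (3.44-fold, SE 0.20), 2.53 and 2.43 in EN and by 2.47, 3.16 and 3.35 (10.2-fold, SE 0.20) in AN, with adjusted p of at most 6.31e-06. The 2 Pmp22 probes correlated at 0.923 over the 24 arrays, so that they ordered the arrays in a similar way while the size of the change differed. The remaining probe with this gene name lies on the opposite strand and was above background on 12 of 24 arrays.

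For Prx the 2 probes took opposite directions after 1 W. The brightest probe differed from P0 by 0.55, 0.07 and 0.40 in EN and by 0.81, 0.30 and 0.79 in AN, with no call. From 1 W to 3 W it changed by -0.47 in EN (SE 0.13, adjusted p = 0.0128) and by -0.51 in AN (SE 0.13, adjusted p = 0.00692). The second probe (A_52_P315837, mm9 chr7:28304333-28304392) rose from P0 by 1.25, 1.81 and 1.47 in EN and by 1.65, 2.21 and 2.13 in AN, all called, with adjusted p of at most 9.76e-06. From 1 W to 3 W that probe changed by 0.56 in EN and by 0.55 in AN, each with an adjusted p of 0.00952 (SE 0.15) and under 2-fold. The 2 probes carry the same transcript accession and correlated at 0.56. What sets them apart was not tested, and no direction after 1 W is given for Prx.

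**Figure D2:**
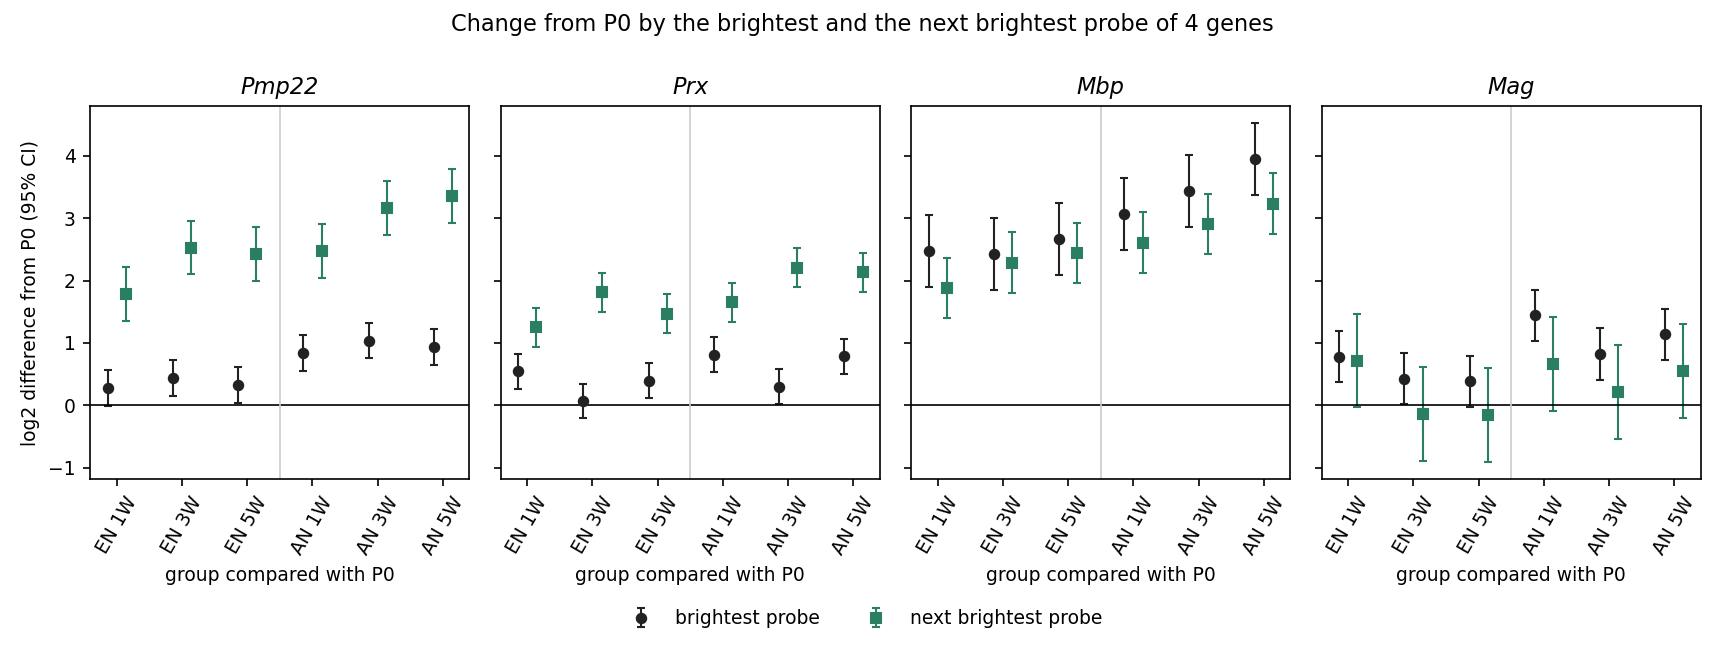
Log2 difference from P0 of the same fibre type (y axis) by later age and fibre type (x axis) for the brightest (black circles) and the next brightest probe (green squares) of Pmp22, Prx, Mbp and Mag, with bars for the 95% confidence interval of the limma fit (3 arrays per group). The Mbp probes are close, whereas for Pmp22 and Prx the next brightest probe lies above the brightest one in all 6 comparisons.

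Between 1 W and 3 W and between 3 W and 5 W no gene of the 8 was called in EN or AN by limma, where 11.7% and 1.13% of all probes were called in EN and 12.6% and 1.7% in AN. All 3 W arrays lay on 1 slide with no 1 W array, so the step from 1 W to 3 W cannot be given within a slide. With no limit on the fold, 4 differences passed an adjusted p of 0.05 between 1 W and 3 W. These were the Prx differences above and, in AN, Mag at -0.62 (adjusted p = 0.0224) and Pmp2 at -0.82 (SE 0.24, adjusted p = 0.0157). Without AN replicate 3 at 3 W neither of the latter passed, with Mag at -0.52 (adjusted p = 0.0735) and Pmp2 at -0.62 (adjusted p = 0.0702). Between 3 W and 5 W, Prx in AN passed at 0.49 (adjusted p = 0.0472), but not without that array (0.51, adjusted p = 0.0782). The median change of the 8 genes was -0.06 and 0.18 in EN and 0.04 and 0.40 in AN for these 2 steps.

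On the chosen probes, the afferent fibres had less signal at birth than the efferent fibres for every one of the 8 genes. All 3 AN arrays lay below all 3 EN arrays for 7 of 8 genes, the exception being Mal, and 6.48% of all probes did so. The median difference, AN minus EN, was -0.90, against 0.01 over all tested probes. By limma, 2 of 8 genes were called lower in AN, Pmp2 at -1.89 (0.269 of the EN level, SE 0.24, adjusted p = 0.00148) and Mbp at -1.25 (0.422 of the EN level, SE 0.27, adjusted p = 0.0404), where 0.256% of all probes were called lower. Pllp had a difference of -1.39 (SE 0.33, adjusted p = 0.0571), Cldn19 of -0.99 (SE 0.27, adjusted p = 0.125) and Mag of -0.81 (adjusted p = 0.0685). The Pmp22 difference was -0.60 (adjusted p = 0.0476, under 2-fold), and its second probe gave -1.30 (SE 0.20, adjusted p = 0.00562), which was called. AN replicate 2 was the lowest array at P0 for all 8 genes, and it was the highest AN array at P0 in the summed signal of sensory neuron genes (16.69, against 15.37 and 15.01) and motor neuron genes (13.14, against 11.75 and 11.42). Isl2 makes up most of the motor neuron sum, with a mean of 11.90 in AN at P0, against 7.65 or less for each other gene of that list. At 1 W Isl2 was at 12.15 in AN and 7.09 in EN, a difference in the direction of the sensory neuron list. The motor neuron sum therefore does not show motor neuron RNA apart from that list. Without AN replicate 2 the Mbp difference was -1.07 (adjusted p = 0.23), and the Mbp call was also lost without AN replicate 1 or any one of the 3 EN arrays (adjusted p = 0.062 to 0.184). Without AN replicate 1, which was the highest AN array for Pllp and Cldn19, both of these were called, at -1.81 (adjusted p = 0.0072) and -1.26.

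Arrays of the same replicate number shared a slide at every age and deviated together from their group means, so the 12 AN and EN pairs were also fitted as a block. That fit called 3 of 8 genes lower in AN at P0, with 0.484% of all probes, and added Pllp at -1.39 (SE 0.18, adjusted p = 0.00363) to Mbp (adjusted p = 0.00168) and Pmp2 (adjusted p = 0.000882). Pmp22, Mag, Prx and Cldn19 passed the adjusted p but not the fold limit in it. The pair differences at P0 for Pllp were -0.99, -1.99 and -1.19, those for Mbp -1.44, -1.38 and -0.92, and those for Cldn19 -0.65, -1.55 and -0.76. In every pair the AN array was the lower one for all 8 genes. The summed Schwann cell signal was also lower in AN at P0, by the ranges given above, while muscle genes were between 14.81 and 15.81 in AN and between 15.76 and 17.03 in EN. Their part in the P0 difference was not tested.

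**Figure D3:**
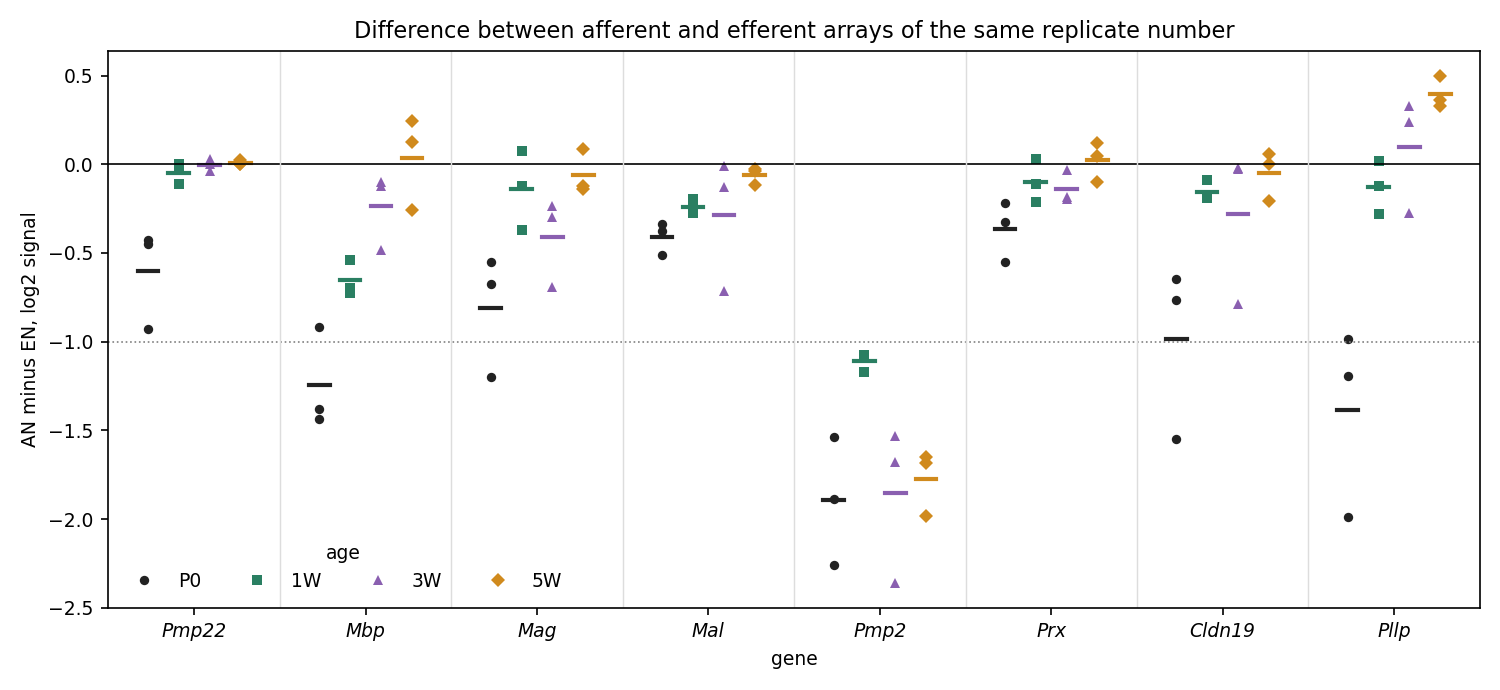
AN minus EN log2 signal (y axis) of the 8 genes (x axis) at each of the 4 ages, with 1 point per pair of arrays of the same replicate number (3 pairs per age), bars for their mean and a dotted line at a 2-fold deficit. All points at P0 lie below 0, and after P0 only Pmp2 stays beyond the dotted line.

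After birth Pmp2 was the gene of the 8 that stayed called lower in afferent fibres. Its AN minus EN difference was -1.11 at 1 W (0.464 of the EN level, SE 0.24, adjusted p = 0.0123), -1.86 at 3 W (0.276, SE 0.24, adjusted p = 0.000135) and -1.77 at 5 W (0.293, SE 0.24, adjusted p = 0.000169). No other gene of the 8 was called at these ages, where 0.387%, 0.89% and 0.832% of all probes were called lower in AN. The pair differences were -1.07, -1.08 and -1.17 at 1 W, -1.68, -1.53 and -2.36 at 3 W and -1.68, -1.98 and -1.65 at 5 W, so no pair came near equality. Without AN replicate 3 at 3 W the difference was -1.66 (adjusted p = 0.00103). At 1 W the size was stable without any single array (-1.14 to -1.07), but the adjusted p rose to 0.0607 without AN replicate 3 or EN replicate 1. Over the alternatives that kept all arrays the difference lay between -1.18 and -1.09 at 1 W, -1.97 and -1.68 at 3 W and -1.89 and -1.74 at 5 W.

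On the chosen probes the other 7 genes were within 2-fold between the fibre types after P0, and none was called. For Mbp and Pmp22 the choice of probe mattered here. Mbp was at -0.65 at 1 W (95% confidence interval -1.23 to -0.08), -0.24 at 3 W (-0.81 to 0.34) and 0.04 at 5 W (-0.54 to 0.61). On its second probe all AN arrays were below all EN arrays at every age, and the AN minus EN difference was -0.69 at 1 W (SE 0.23, adjusted p = 0.122), -0.80 at 3 W (adjusted p = 0.0472, under 2-fold) and -0.62 at 5 W (adjusted p = 0.12). Without AN replicate 3 the 3 W value was -0.67 (adjusted p = 0.182). The brightest Pmp22 probe was at -0.05, 0.00 and 0.01, at ranks where quantile normalization gives both fibre types nearly the same values. With 75th percentile scaling it was at -0.299, -0.435 and -0.163, with no call. On the second Pmp22 probe all AN arrays were below all EN arrays at every age, with differences of -0.61 (SE 0.20), -0.67 (adjusted p = 0.0606) and -0.37, none of them called. Pllp went from -0.13 at 1 W to 0.10 at 3 W and 0.40 at 5 W (95% confidence interval -0.29 to 1.08), with AN above EN in 3 of 3 pairs at 5 W. Cldn19 was at -0.15, -0.28 and -0.05. Mal, which has no second probe, was among the 100 brightest probes on 18 arrays, so the same limit holds for it. It was at -0.238, -0.285 and -0.06, and at -0.462, -0.65 and -0.265 with 75th percentile scaling, with no call. A missed threshold does not show equal levels, and the intervals give the differences that these arrays allow.

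The change in the fibre difference since birth was tested directly. AN minus EN at a later age minus that at P0 was above 0 for all 8 genes at each later age, with medians of 0.63, 0.50 and 0.68 against -0.04, -0.02 and -0.02 over all tested probes, and the 3 values share the P0 arrays. Without the pair block limma called 0 of 8 genes, where 0.0632%, 0.53% and 0.948% of all probes were called. At the same ages 1, 2 and 2 genes had more than a 2-fold change and an unadjusted p below 0.05. With the pairs as a block, 0 of 8 genes were called at 1 W and 2 at each later age, Mbp and Pllp, where 0.437%, 1.85% and 2.77% of all probes were called in either direction. Mbp gained 1.01 at 3 W (SE 0.18, adjusted p = 0.0184) and 1.28 at 5 W (SE 0.18, adjusted p = 0.00555) in AN relative to EN, and Pllp gained 1.48 (SE 0.25, adjusted p = 0.0136) and 1.78 (SE 0.25, adjusted p = 0.00501). For Pmp2 the same values were 0.79 at 1 W (SE 0.23, adjusted p = 0.137), 0.04 at 3 W (SE 0.23, adjusted p = 0.95) and 0.12 at 5 W (SE 0.23, adjusted p = 0.793). The second Mbp probe gave 0.61 and 0.79 at 3 W and 5 W in the fit without pairs (adjusted p = 0.623 and 0.349).

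Ranking the 8 groups by mean shows which levels could be resolved. For Mbp, Mal, Cldn19 and Pllp the 2 lowest groups were EN and AN at P0, and the next group up was separated from EN at P0 by 1.82, 0.83, 0.85 and 1.28 (adjusted p = 0.000203, 0.000121, 0.0372 and 0.0115). None of the 5 steps above that one passed an adjusted p of 0.05 for these 4 genes. For Pmp2 the steps that passed were from AN at P0 to AN at 3 W (1.88, adjusted p = 4.1e-06) and from AN at 1 W to EN at 3 W (1.03, adjusted p = 0.00263), which left the 3 later EN groups above all others. For Pmp22 only the step between AN and EN at P0 passed, and for Mag and Prx no neighbouring groups differed.

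Slide and age overlapped only in part. All 3 W arrays lay on 1 slide, scanned on a day of its own, without any P0 or 1 W array. The 3 W differences from P0 and from 1 W therefore cannot be given within a slide. With slide as a fixed block, which links the slides through the 1 W and 5 W arrays, the counts at 3 W were again 5 in EN and 6 in AN, with Mbp at 2.28 and 3.29 and Cldn19 at 1.23 and 1.94. In AN that fit called Mag (1.22, adjusted p = 0.00174) and not Pmp22. Within the 2 slides that held both P0 and 1 W arrays, all 8 genes were above P0 at 1 W, by 0.23 to 2.63 and 0.28 to 1.89 in EN and by 0.57 to 3.53 and 0.77 to 2.80 in AN. Within the 1 slide that held both P0 and 5 W arrays, all 8 were above P0, by 0.34 to 2.69 in EN and 0.84 to 4.08 in AN. The AN minus EN pair differences above are all values within a slide.

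Of 20 further peripheral myelin and myelinating Schwann cell genes, all tested, 9, 11 and 9 were called higher than at P0 in EN in order of age, against 6.32%, 16.1% and 15.5% of all probes. In AN 10, 12 and 12 were, against 4.98%, 15.1% and 15.2%, and the count at 3 W was 13 without AN replicate 3. In EN at 5 W 1 was called lower. Their median change at 3 W was 1.11 in EN and 1.62 in AN. The 4 with the largest called change in EN at 3 W were Drp2, the dystroglycan-linked partner of periaxin, at 4.47 (SE 0.29, adjusted p = 8.33e-10), Ugt8a, which makes galactolipids of myelin, at 2.54 (SE 0.24), Gjb1, the connexin of non-compact myelin, at 2.43 (SE 0.27), and Ncmap, a small protein of non-compact myelin, at 2.41 (SE 0.25). In AN the same genes rose by 5.59, 3.28, 3.03 and 3.91. Mpp6, a membrane scaffold, went against the list at 5 W in EN, by -1.22 (SE 0.16, adjusted p = 3.11e-06). At P0, 6 of the 20 were called lower in AN than in EN, against 0.256% of all probes, namely Drp2 (-1.66), Gldn (-1.51), Ugt8a (-1.28), Ncmap (-1.26), Gjb1 (-1.24) and Fa2h (-1.02), and none was called lower at 1 W, 3 W or 5 W, when 0, 0 and 1 were called higher. Of the interactions in the fit without pairs, 4 were called higher at 5 W, where 0.632% of all probes were, namely Ncmap (1.57), Art3 (1.37), Cnp (1.27) and Fa2h (1.20).

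Of 11 transcription factors and cofactors of Schwann cell myelination 10 were tested. In EN at 3 W, 1 was called higher and 2 lower than at P0, against 16.1% and 14.4% of all probes, so the list's share is near the background. Nab2, a cofactor of Egr2, rose by 1.68 (SE 0.20, adjusted p = 1.8e-06) in EN and 1.71 in AN. Pou3f1, which acts at the start of myelination and is shut off in mature Schwann cells, was lower in EN at 3 W by -1.83 (SE 0.39, adjusted p = 0.000729) and at -0.25 in AN (adjusted p = 0.616), and its relative Pou3f2 was lower in EN by -1.48 (SE 0.23, adjusted p = 2.61e-05). Egr2, the master regulator of myelin genes, was at 0.85 in EN (SE 0.17, under 2-fold) and rose by 1.52 in AN (SE 0.17, adjusted p = 1.12e-06). Nfatc4 was lower in AN by -1.01 (adjusted p = 0.00841), a call that was lost without AN replicate 3 (-0.99), which did not change the other AN calls named here.

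Part of the genes of immature and non-myelinating Schwann cells were called lower after P0. Of 12 tested, 4, 9 and 8 were lower than at P0 in EN in order of age, where 5.65%, 14.4% and 14.5% of all probes were lower, and 1, 6 and 7 in AN, where 3.62%, 12.8% and 12.7% were. None of the 12 was called higher. The 4 with the largest change in EN at 3 W were Gap43, a protein of growing axons and immature glia, at -4.75 (SE 0.66, adjusted p = 9.59e-06), Pax3 at -3.66 (SE 0.27), the differentiation inhibitor Id2 at -3.25 (SE 0.18) and the adhesion gene Ncam1 at -2.93 (SE 0.13), against -2.70, -1.63, -2.09 and -1.69 in AN. Between the fibre types, 0, 3, 7 and 7 of the 12 were higher in AN in order of age from P0, where 0.0714%, 2.41%, 2.24% and 2.51% of all probes were, among them Pax3 at 2.79 (SE 0.27, adjusted p = 5.2e-06) and Ncam1 at 2.12 (SE 0.13, adjusted p = 3.32e-08) at 5 W. The direction of these differences at 3 W and 5 W was thus opposite to that of Pmp2. Gap43, L1cam and Ncam1 are also genes of neurons, and the sensory neuron list moved the same way. In EN 7 of its 8 genes were called lower than at P0 at each later age, with medians of -4.25, -4.42 and -4.64. In AN none was called lower at 1 W, 1 was at 3 W, or 6 without AN replicate 3, and 5 were at 5 W. Its median was higher in AN than in EN by 4.95 at 1 W, 3.53 at 3 W and 1.54 at 5 W, and by 1.72 at 3 W without AN replicate 3. Without that array 6 of the 12 immature Schwann cell genes were higher in AN at 3 W, and Gap43 was at -3.70 in AN against P0. The part of neurons in these differences was not tested.

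**Figure D4:**
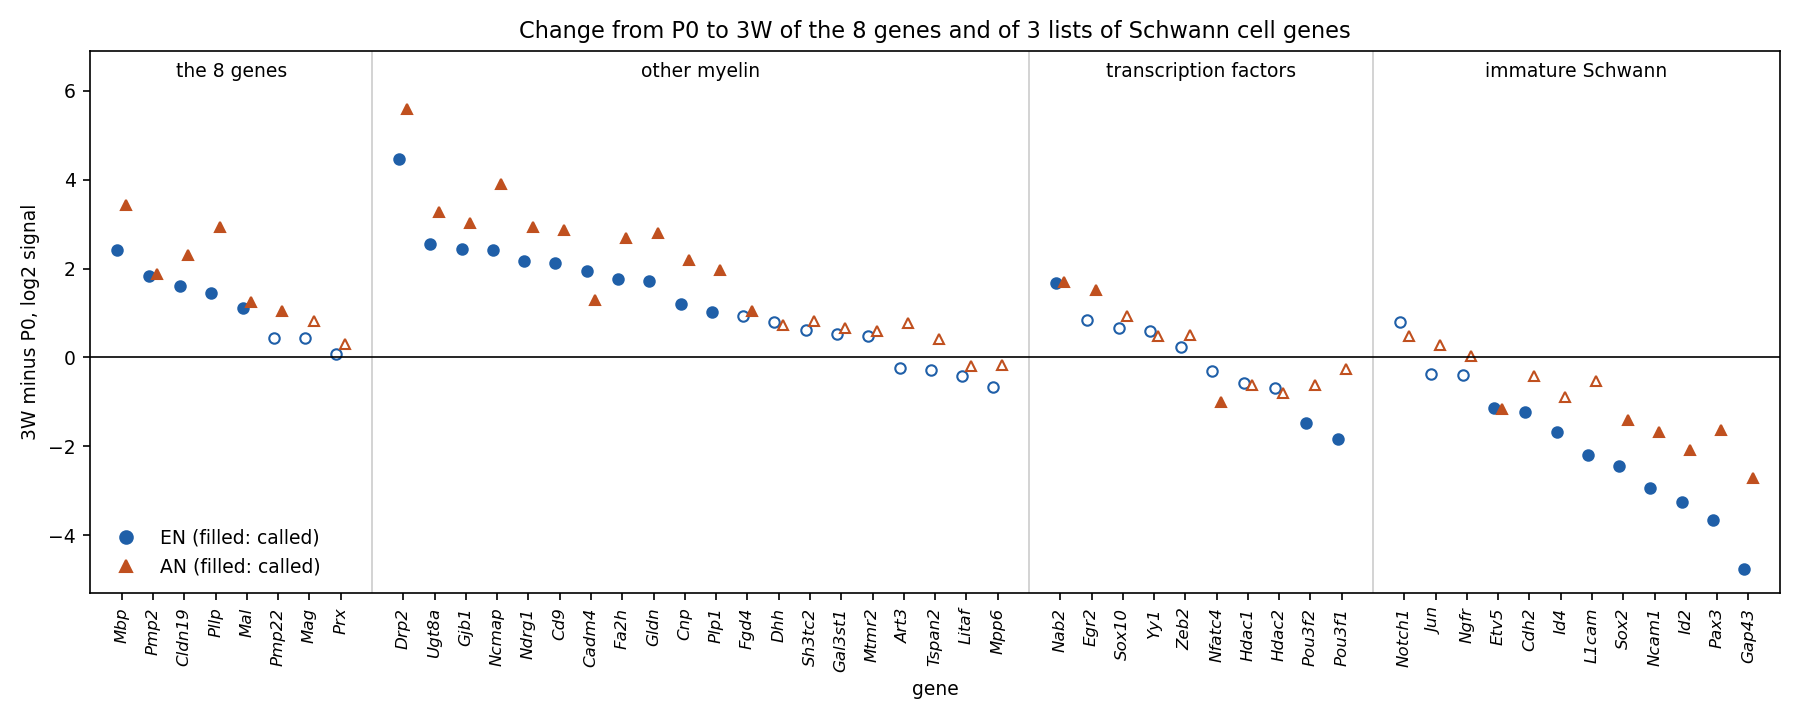
Log2 change from P0 to 3 W (y axis) of the 8 genes and of 3 lists of Schwann cell genes (x axis, ordered by the EN value within a list) in EN (blue circles) and AN (orange triangles), with filled symbols for called changes (limma, 3 arrays per group). The called changes of the 8 genes and of the other myelin genes are all above 0, and those of the immature Schwann cell genes are all below 0.

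The oligodendrocyte genes are given here because Mbp, Mag, Mal and Pllp are also expressed by oligodendrocytes, which meet the root near the spinal cord. The summed signal of the 10 oligodendrocyte genes lay between 15.37 and 15.74 over the 6 arrays at P0 and between 13.39 and 16.27 over the 18 later arrays, so the groups overlapped. Ermn makes up most of that sum in each group but EN at 5 W, where its mean was 13.1 against 13.2 for Aspa. The rest of the list is better seen in its counts. Of the 10 genes, 5 were called higher than at P0 at 3 W in each fibre type and 1 lower in EN. At 1 W 1 was higher in EN and 2 in AN, and at 5 W 3 were higher and 3 lower in EN and 5 were higher and 1 lower in AN. Of all probes, 6.32%, 16.1% and 15.5% were called higher than at P0 in EN in order of age, and 5.65%, 14.4% and 14.5% lower. For AN these shares were 4.98%, 15.1% and 15.2% higher and 3.62%, 12.8% and 12.7% lower. A count of 1 of 10 against P0 is therefore near the background. In AN against EN 0, 2, 1 and 4 were higher in order of age from P0, where 0.0714%, 2.41%, 2.24% and 2.51% of all probes were. Mobp had means of 11.6 in EN and 12.2 in AN at 3 W, and at P0 it was above background on the 1 EN array only. Hapln2 was above background on no array at P0 or 1 W and on all 6 arrays at 3 W. The part of oligodendrocytes in the signals of the myelin genes was not tested.

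Over the 24 arrays the 8 genes correlated with each other at 0.587 to 0.95, with a median of 0.823 over 28 pairs of genes, and their deviations from group means at 0.117 to 0.848, with a median of 0.51. These are descriptions, since the arrays share age, slide and normalization. The genes whose values followed a member most closely over the 24 arrays were as follows. For Mbp they were Carns1 (0.978), Ugt8a (0.977) and Ecscr (0.977), for Cldn19 Hspb2 (0.983), Myh14 (0.983) and Cln8 (0.981), and for Pllp Osbpl1a (0.974), Magix (0.971) and Nfasc (0.966). For Pmp2 they were Klrb1a (0.960), Gm7444 (0.959) and Slc35a2 (0.957). The closest to Mag were Nsdhl (0.943), Lss (0.933) and Sptlc2 (0.928), of which the first pair encode enzymes of sterol synthesis and the last a subunit of the enzyme that starts sphingolipid synthesis. For Mal they were Mme (0.967), Dusp14 (0.966) and Ralgapb (0.965). For the bright probe of Pmp22 they were AK078720 (0.952), Ncmap (0.951) and Bcas1 (0.943). For that of Prx, Gm15446 (0.929) and 4930563H03Rik (0.902) are given.

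Since all 8 genes were lowest at P0 on the chosen probes, the promoters of 6 of them held in the RefSeq table of GRCm38.p6 (250 bases before to 50 after a start site) were searched. The search was for letters of factors that act on myelin genes, on both strands. The EGR letters GTGGGNG were found for 3 of 6 genes, Cldn19, Mag and Prx, and in 31.6% of 32851 promoters or 34.3% of 27025 genes. The SOX letters ACAAAG were found for Mag only, against 18.7% of promoters or 21.0% of genes, and ACAATG for none, against 12.6% or 14.3%. The POU letters ATGCNAAT were found for Prx only, against 3.15% of promoters or 3.6% of genes. The 250 bases before the start site are shown for Cldn19 (GRCm38.p6 chr4:119255191-119255440, plus strand) and Prx (GRCm38.p6 chr7:27499074-27499323, plus strand), with the EGR match in capitals, which begins 86 and 107 bases before the start. In Prx the EGR letters are on the minus strand and the POU match begins 233 bases before the start, and no 2 matches overlapped in either window.
Cldn19: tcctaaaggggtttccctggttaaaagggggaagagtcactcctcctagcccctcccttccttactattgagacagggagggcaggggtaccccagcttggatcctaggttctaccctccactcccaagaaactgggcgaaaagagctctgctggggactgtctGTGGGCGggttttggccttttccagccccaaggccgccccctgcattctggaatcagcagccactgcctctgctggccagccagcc
Prx: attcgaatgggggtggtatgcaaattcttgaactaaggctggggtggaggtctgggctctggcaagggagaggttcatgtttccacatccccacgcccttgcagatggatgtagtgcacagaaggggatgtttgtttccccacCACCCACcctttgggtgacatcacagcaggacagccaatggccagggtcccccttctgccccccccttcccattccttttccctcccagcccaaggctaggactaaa
A match of letters is a description of the window and shows neither binding nor control by a factor.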

How the data were processed

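Scanner output of 24 arrays was used. As deposited, it holds each spot's fluorescence intensity after background subtraction and detrending in Agilent Feature Extraction 10.7.1.1, beside the raw mean, the local background and spot flags. The authors also deposited a log2 value table of 56743 probes, quantile normalized in GeneSpring according to the methods, and it served to choose probes and as an alternative. Its columns correlated with their own arrays at 0.9955 to 0.9999 and with other arrays at 0.9904 or less, and their medians were 6.319 to 6.32. Here, outlier spots were dropped (47 to 179 of 59305 gene spots per array, none of a member gene), spots of a probe were averaged, and log2 intensity was quantile normalized. Probes had to be well above background on all 3 arrays of 1 or more groups, which left 36398 (64.3%) for limma 3.58.1 in R 4.3.3, with 8 group means, 16 residual degrees of freedom and Benjamini-Hochberg adjustment over all tested probes. The study's thresholds were a p below 0.05 and a fold above 2, and whether its p was adjusted is not stated. The fit was tested on simulated data.

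Signal over background sets the precision on arrays, and the number of arrays limits it. Median signal was 45.4 to 191 over a background of 23 to 46. Groups came from the fibre type and age on the labels, and no array was left out. Same-numbered AN and EN arrays correlated in their deviations from group means at 0.107 to 0.665 (12 pairs), against -0.484 to 0.118 for other numbers (24), so the replicate numbers were taken to pair the arrays. The alternatives were the value table, 75th percentile scaling, normexp, no dim filter, other probes, other call rules, replicate and slide blocks, array weights, fewer groups and leaving out each array. The counts for the lists without AN replicate 3 at 3 W were added after seeing the data.

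The 8 genes and the lists of context and marker genes were chosen with earlier results of these data known. Named were the 8 genes in every comparison, for each the 3 genes of highest correlation, the 4 called genes of largest EN change at 3 W of each context list with those that moved against it, and marker genes by signal. Context genes beyond this rule were named after their values were seen. One gene that the rule names for Prx is not reported here.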

Additional observations from a re-analysis of the deposited data

Results flagged for a closer look

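The change in the afferent deficit since birth differed from 0 for a pair of genes, on their chosen probes, when arrays of the same replicate number were fitted as a block. The change in AN minus EN from P0 to 3 W was 1.009 for Mbp and 1.484 for Pllp, and from P0 to 5 W it was 1.283 for Mbp and 1.783 for Pllp, all on the log2 scale. Each is a test of the difference itself, an interaction of fibre type and age, and each passed with the pair block and missed the adjusted p without it (0.369 and 0.207 at 3 W, 0.14 and 0.0692 at 5 W). For Mbp the pairs at P0 were -1.44, -1.38 and -0.92 and those at 5 W -0.26, 0.24 and 0.13, and for Pllp they were -0.99, -1.99 and -1.19 at P0 and 0.50, 0.36 and 0.33 at 5 W. The second Mbp probe gave smaller values without the block, 0.61 at 3 W and 0.79 at 5 W. On that probe AN stayed below EN in 3 of 3 pairs at each age. Its mean differences were -0.80 at 3 W (adjusted p = 0.0472) and -0.62 at 5 W (adjusted p = 0.12). At 5 W the AN minus EN difference of Mbp was thus 0.04 on the brightest probe and -0.62 on the second, and neither was called. On the last Mbp probe the AN mean was above the EN mean at every age, with 10.54 against 10.47 at P0 and 11.26 against 10.73 at 5 W.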

How the results depend on the processing

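The number of the 8 genes called was computed under each alternative. Counts against P0 kept within 1.5 times of those given under all of them, with 5 to 8 called in AN and 4 to 7 in EN. AN against EN at P0 gave 2 genes, but 1 with 75th percentile scaling, 1 with no filter on dim probes, 4 with array quality weights and 0 with only the compared groups in the fit, and 1 to 3 without single arrays. Fitted on those groups alone, the Pmp2 difference at P0 had the same size and an adjusted p of 0.266. At 1 W that count was 0 to 1 without single arrays, 0 without AN replicate 3 or EN replicate 1. With no fold limit, the count from 1 W to 3 W went from 0 to 1 in EN and 3 in AN, and from 3 W to 5 W it was 1 in AN. The change in the fibre difference since P0 gave 0 genes at each age, against 1 at 1 W, 2 at 3 W and 2 at 5 W at an unadjusted p. At 3 W it gave 2 with the replicate block of 12 pairs, 1 with slide as a fixed block, 1 with slide as a random block and 1 with array quality weights, and 0 to 1 without single arrays. At 5 W it gave 2 with the replicate block of 12 pairs, 1 with the replicate number alone as a block, 1 and 1 with slide, and 0 to 1 without single arrays. Beside Pllp at P0 and these, the pair block changed no other call of the 8 genes between the fibre types.

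Signs turned only for small differences. With the next brightest probe, Mag in EN was at -0.132 at 3 W and -0.156 at 5 W. For AN minus EN at 1 W, Pmp22 was at 0.007 with normexp. At 3 W, Mag was at 0.131 with the next probe, and Pllp at -0.094 with 75th percentile scaling and -0.189 with the next probe. At 5 W, Pmp22 was at -0.163 with 75th percentile scaling, -0.003 with normexp and -0.372 with the next probe. Mbp was then at -0.151, at -0.076 with array weights and at -0.622 with the next probe, Prx at -0.148 with 75th percentile scaling and -0.083 with the next probe, Mag at 0.492 with the next probe and Cldn19 at 0.026 with array weights. Leaving out single arrays gave -0.369 to 0.039 for Pllp at 1 W, -0.043 to 0.279 for Pllp and -0.018 to 0.014 for Pmp22 at 3 W. At 5 W it gave -0.06 to 0.082 for Pmp22, -0.045 to 0.178 for Mbp, -0.177 to 0.091 for Mag, -0.095 to 0.094 for Prx and -0.177 to 0.155 for Cldn19. Apart from the probe, whose part is given with Pmp22 and Prx, and the smaller number of arrays, the cause of these shifts was not tested.

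Of the other values for single genes, 781 kept direction and call, 22 gained a call and 13 lost it, and without single arrays 447 kept both, 4 gained a call and 14 lost it. The 781 include next-probe values of Mal, Pmp2 and Cldn19. These genes have no second probe, so those values repeat the chosen probe and could not differ. The dimmest probes limit the reading: the opposite-strand probes of Pmp22 and Pllp were below background on part of the arrays and give no fold.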
